A study of Caenorhabditis elegans with 26 samples.

Results

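The glutathione S-transferase genes of Caenorhabditis elegans were followed across 5 strains that differ in the level of the neuropeptide gene flp-17. Members were all genes of the deposited table whose symbol is gst- or gsto- followed by a number, which gave 47 of 42533 symbols, 44 of them named gst and 3 named gsto. Of the 47, 34 passed the filter on low counts that 13315 genes passed in all, and 13 did not. Each library held poly(A) RNA of 200 to 500 whole day 1 adults, and the reads of each gene were counted.

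Every strain carried zcls4[hsp-4p::GFP]V, a reporter of stress in the endoplasmic reticulum, so no group lacks a GFP transgene. AEF231 held the reporter alone, after SJ4005 had been outcrossed 6 times to N2, and served as control (n = 6). AEF276 had in addition flp-17(n4894), a loss-of-function allele (n = 5). AEF378 held the extrachromosomal array ashEx67, a flp-17::GFP fusion under gcy-31p, marked by coel::RFP (n = 5). gcy-31p is the promoter of a soluble guanylate cyclase gene active in the oxygen-sensing BAG neurons. AEF373 held an array of flp-17 under its own promoter and with its own 3' end, marked by unc-122p::mCherry, and was made from YUW133 by crossing that strain's flp-17 null background out (n = 5). AEF149 held ssrEx1193, a GFP fusion under the flp-17 promoter marked by myo-3p:mCherry, in SJ4005 without the outcross (n = 5). AEF276, AEF378 and AEF373 shared the background of AEF231. Array animals passed a particle sorter that selected for the marker 24 h before collection, and those of AEF231 and AEF276 were washed and replated, so array and sorting cannot be told apart here. Background and array cannot be told apart in AEF149. Of the 26 libraries 20 were in batch 1; the 6 of batch 2 were 2 each of AEF231, AEF378 and AEF373, so AEF276 and AEF149 were in batch 1 alone. Replicates 5 and 6 of AEF231, its batch 2 libraries, bear the same group number in the labels. Whether these or other libraries of a strain stem from separate cultures is not in the labels. The p-values then cover only the spread among libraries, which may be technical.

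Glutathione S-transferases join the tripeptide glutathione to reactive compounds such as lipid aldehydes and foreign chemicals, or use it to reduce or isomerise them. They act in dimers, and nematodes have a large nematode-specific group beside the classes shared with vertebrates, among them omega enzymes (the gsto genes) and the zeta enzyme (gst-42). Several worm members are expressed in the intestine or epidermis, and some are induced by the transcription factor SKN-1 in response to oxidants and electrophiles. gst-4 is the standard reporter of that response.

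Libraries held between 9659877 and 15528669 counts. flp-17 stood where the labels place it in each strain, at mean CPM (reads scaled to library size, on the TMM scale) of 3.80 for AEF231, 0.310 for AEF276, 7.59 for AEF378, 301 for AEF373 and 388 for AEF149. In whole animals, fewer cells of a type and less RNA per cell cannot be told apart. Some cell type markers differed with strain. All 9 tested sperm markers fell in AEF276 and in AEF149 against AEF231. Their summed levels were 1.52 to 4.29 CPM and 5.79 to 11.9 CPM there, beside 31.3 to 69.3 CPM in AEF231. In AEF373 3 of the 9 fell, and in AEF378 0 did, with summed levels of 11.4 to 66.2 CPM and 26.8 to 68.4 CPM. Of 10 moulting and larval cuticle markers, 5 rose in AEF378 and 7 in AEF373, with summed levels of 96.6 to 157 CPM and 176 to 316 CPM beside 61.5 to 90.5 CPM in AEF231. Intestinal markers, of which none was at 0 in any strain, were called higher and lower in 0 and 4 of 10 in AEF276, 1 and 1 in AEF378, 2 and 2 in AEF373, and 1 and 6 in AEF149. Their summed level was 2962 to 3816 CPM for AEF231, 2720 to 3694 for AEF276, 3150 to 3664 for AEF378, 3329 to 4270 for AEF373 and 2502 to 2756 for AEF149. Neuronal markers rose in 3 of 10 in AEF378, 9 in AEF373 and 6 in AEF149, with summed levels of 302 to 374, 314 to 399 and 347 to 381 CPM beside 275 to 325 in AEF231. Body wall muscle markers rose in 3 of 10 in AEF378 and 5 in AEF373, fell in 7 in AEF276, and in AEF149 rose in 1 and fell in 7. Their summed level was 4426 to 5581 CPM in AEF276 and 4006 to 4245 in AEF149, beside 5079 to 7163 in AEF231. It was 6066 to 6945 CPM in AEF378 and 5815 to 7134 in AEF373, both inside the range of AEF231. Of 4 tested embryo markers, 1 rose and 0 fell in AEF276 and in AEF378. In AEF373 1 embryo marker rose and 3 fell, and in AEF149 0 rose and 1 fell. Of 9 tested epidermal markers, 0 rose and 3 fell in AEF276, and 2 rose and 0 fell in AEF378. In AEF373 3 rose and 1 fell, and in AEF149 1 rose and 1 fell. Their summed level was 1170 to 1473 CPM in AEF276, 1482 to 1695 in AEF378 and 1274 to 1604 in AEF373. In AEF149 it was 818 to 1000.2 CPM, beside 1318 to 1963 in AEF231. Of all genes tested, 11.2% were called higher and 9.08% lower in AEF276 than in AEF231, and 7.68% and 5.92% in AEF378. The shares were 17.9% and 16.9% in AEF373, and 6.51% and 11% in AEF149. Marker counts near these shares are not read as a shift of a tissue. The part of any of the marker changes in the results below was not tested.

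The family was carried by a few genes. Per kilobase of exon, gst-1 was read in AEF231 at a mean of 218 CPM and gst-7 at 199, followed by gst-27 at 59.2, gst-26 at 38.1, gst-36 at 37.7, gst-13 at 33.8 and gst-4 at 30.3. gst-1 encodes an enzyme known in worms to protect dopamine neurons from manganese. The other members ran from gst-42 at 15.4 CPM per kilobase down to gst-37 at 0.0249. gst-1 gave 28.2% of the counts of the family in AEF231, gst-7 25.6% and gst-27 7.59%. The 13 members that were not tested, gst-8, gst-14, gst-17, gst-18, gst-19, gst-23, gst-25, gst-31, gst-32, gst-33, gst-34, gst-37 and gsto-2, held 1 to 132 counts each over all 26 libraries. Together they made up at most 0.642% of the counts of the family in a library, and were not tested for change.

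The summed level of the 47 members overlapped between all strains, while its make-up differed in AEF276. It was 579 ± 23.2 CPM in the 6 control libraries (SD). It was 582 ± 13.3 for AEF276, 599 ± 41.0 for AEF378, 607 ± 23.9 for AEF373 and 595 ± 26.2 for AEF149 (SD, 5 libraries each). gst-1 and gst-7 together took 61.2 to 62.3% of that sum in the libraries of AEF276. In the other strains their share was lower in every library, at 51.3 to 56.2% in AEF231, 50.9 to 55.1% in AEF378, 49.9 to 52.8% in AEF373 and 55.5 to 56.8% in AEF149. These sums are descriptions without a test.

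**Figure D1:**
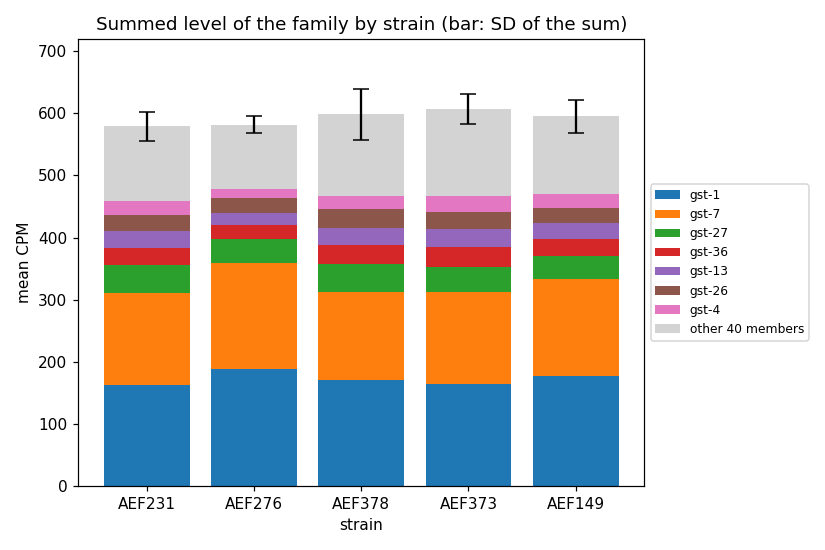
Mean level of the family in each strain, in CPM stacked by gene for the 7 members with the most counts and the other 40 together. Error bars are the SD of the sum over libraries, n = 6 for AEF231 and 5 elsewhere; the sums lie between 579 and 607 CPM, and the gst-1 and gst-7 blocks are tallest in AEF276.

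Whether a member differed between any of the 5 strains was asked in 1 joint test per gene. By edgeR's quasi-likelihood test, adjusted over all genes after Benjamini and Hochberg, 17 of the 34 tested members were called (50.0%), where 62.3% of all genes were. By adjusted p the order was gst-24 (2.48e-14), gst-4 (8.96e-06), gst-10 (3.44e-05), gst-22 (3.77e-05), gst-20 (3.8e-05), gsto-1 (0.000121), gst-38 (0.000123), gst-39 (0.000302), gst-13 (0.000776), gst-1 (0.00315), gst-42 (0.00719) and gst-5 (0.0101). gst-28, gst-9, gst-29, gst-36 and gst-21 were also called, at 0.0107 to 0.0389. Of these 5, gst-28 kept its call without any one library. The call of gst-21 was lost without AEF231 replicate 5, AEF276 replicate 1 or 4 or AEF373 replicate 1, 3 or 5 (adjusted p of 0.0523 to 0.137), and that of gst-36 without AEF276 replicate 1, 3 or 5 or AEF378 replicate 3 (0.0527 to 0.0776). Without AEF373 replicate 3, gst-29 and gst-9 were not called (0.117 and 0.0703). The share called was below that of genes at large, but this difference was not tested. With any 1 library left out the count was 15 to 19.

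**Figure D2:**
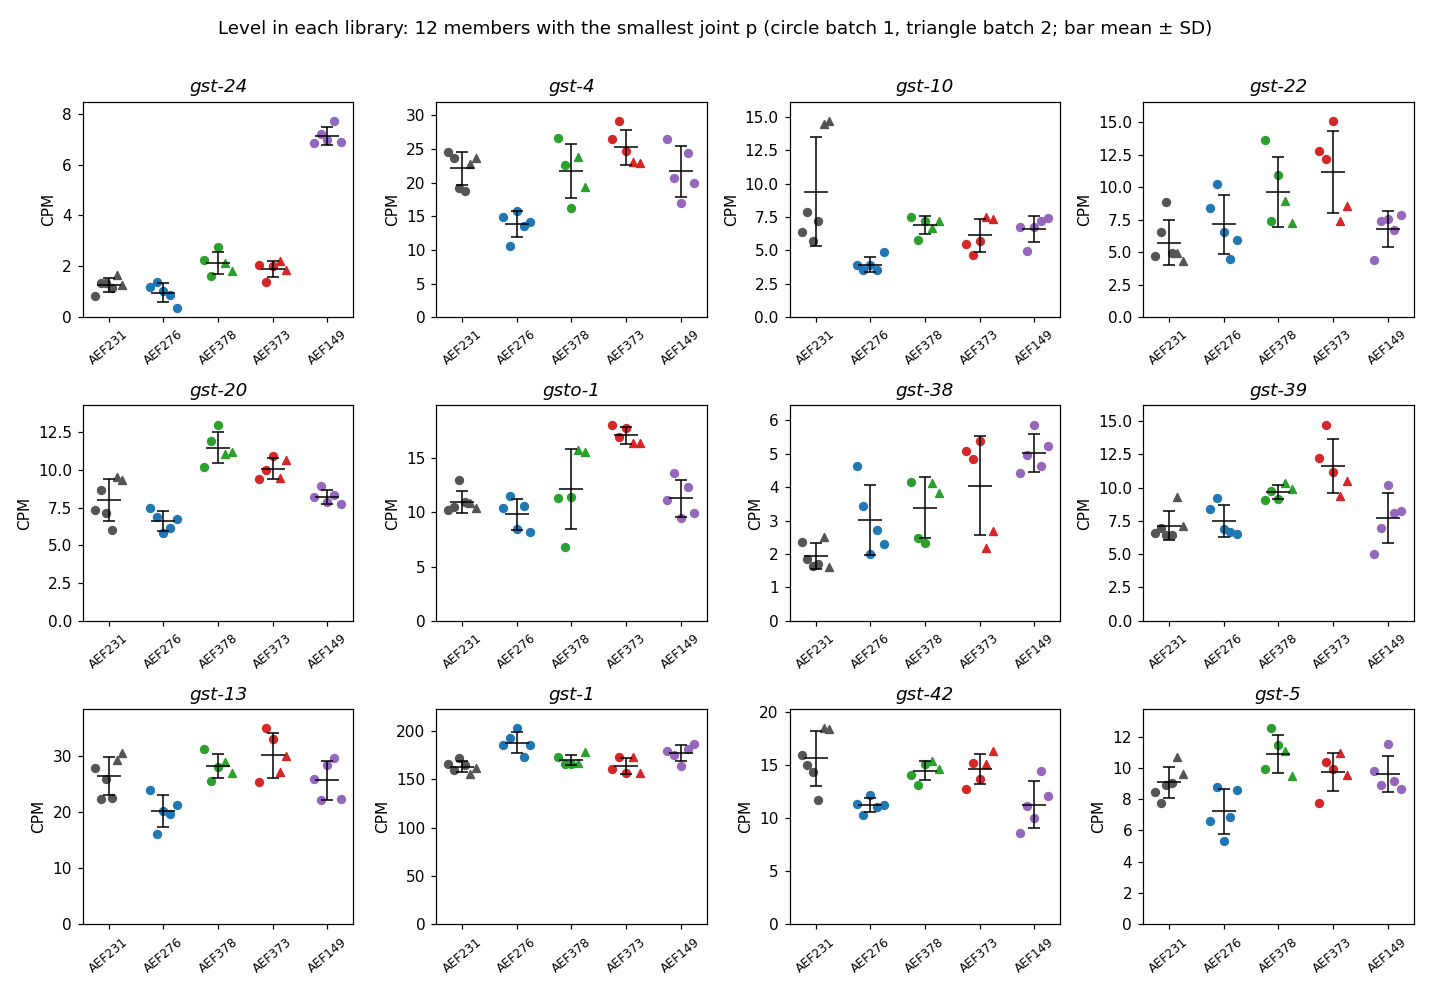
Level in CPM (vertical axes, each from 0) in every library of the 5 strains for the 12 members with the smallest joint p; circles are batch 1, triangles batch 2, and bars the mean ± SD. gst-24 stands apart in AEF149 at 6.87 CPM and above, gst-4 and gst-10 are low in all 5 libraries of AEF276, and gsto-1 is high in all 5 of AEF373.

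Loss of flp-17 was compared first. In AEF276, 5 members fell and 1 rose. The 5 were gst-10, gst-4, gst-28, gst-42 and gst-13, and the 1 that rose was gst-1, the most abundant member. Called lower were 14.7% of tested members against 9.08% of all genes, and called higher 2.94% against 11.2%. The median log2 fold change of members was -0.26, with 12 of 34 above 0, beside 0.00 over all genes tested.

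gst-10 (WBGene00001758, chromosome V, 2561690 to 2564645, plus strand, WBcel235), whose enzyme conjugates the lipid peroxidation product 4-hydroxynonenal, had the largest called fall. It was read at 3.88, 3.52, 3.91, 3.51 and 4.86 CPM in the libraries of AEF276, and at 5.72 to 14.7 CPM with a median of 7.55 in AEF231. The strains did not overlap, and the log2 fold change was -1.0 ± 0.17 (SE, edgeR adjusted p = 5.32e-05). The control itself was split by batch: batch 1 libraries of AEF231 were at 5.72 to 7.87 CPM and both batch 2 libraries at 14.5 and 14.7. The libraries of AEF276 were all in batch 1 and lay below every AEF231 library of that batch. In the batch 1 controls the mean was 6.80 CPM, against 3.94 in AEF276, and over batch 1 alone the change was -0.81 (edgeR adjusted p = 0.000922).

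gst-4 (WBGene00001752, chromosome IV, 10142225 to 10143099, plus strand) was at 14.9, 10.6, 15.8, 13.6 and 14.1 CPM in AEF276 and at 18.7 to 24.6 CPM with a median of 23.2 in AEF231. All AEF276 libraries lay below all of the control (log2 fold change -0.70 ± 0.13, edgeR adjusted p = 0.00014). Its exons share 65 bases with dhs-12 on the same strand, and reads there cannot be assigned to either gene with certainty. None of the array strains was called for gst-4. Its libraries ran from 16.2 to 26.6 CPM in AEF378, from 23 to 29.1 in AEF373 and from 17 to 26.5 in AEF149.

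gst-28 (WBGene00001776, chromosome II, 15166194 to 15167577, minus strand) was read at 6.21 to 8.35 CPM in AEF276 and 9.32 to 12.6 in AEF231, without overlap (-0.54 ± 0.14, edgeR adjusted p = 0.00534). gst-42 (WBGene00001790, chromosome X, 11726264 to 11727936, minus strand), which encodes the zeta enzyme that isomerises maleylacetoacetate in tyrosine breakdown, stood at 11.4, 10.3, 12.2, 11 and 11.2 CPM in AEF276. In AEF231 it lay between 11.7 and 18.5 CPM with a median of 15.5, and 4 of 5 AEF276 libraries were below that range (-0.40 ± 0.11, edgeR adjusted p = 0.00996). gst-13 (WBGene00001761, chromosome II, 9231457 to 9232344, plus strand) was at 24.0, 16.1, 20.2, 19.6 and 21.2 CPM beside 22.4 to 30.4 with a median of 26.8 (-0.37 ± 0.11, edgeR adjusted p = 0.0121). 4 of 5 libraries lay below the control range. In batch 1 alone its change was -0.30 and no longer called (adjusted p = 0.0734). Lack of overlap was not confined to called members. For gst-12 and gst-27, too, all AEF276 libraries lay below all of AEF231, without a call (edgeR adjusted p = 0.0677 and 0.143). The share of all genes without overlap is not given here.

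gst-1 (WBGene00001749, chromosome III, 9059331 to 9060181, plus strand) was at 186, 193, 203, 174 and 185 CPM in AEF276 and at 155 to 172 CPM with a median of 163 in AEF231. The groups did not overlap, though the change was small, at 0.20 ± 0.05 log2 (edgeR adjusted p = 0.00252). gst-7, the next in level, moved by a like amount without passing the threshold (0.21 ± 0.08, edgeR adjusted p = 0.0639). Its libraries were at 152 to 182 CPM in AEF276 and 138 to 161 in AEF231. Oogenic germ line markers, of which 8 of 10 rose in this strain, had summed levels of 13248 to 15820 CPM beside 11597 to 13108 in AEF231. Of the same 10 markers, 0 rose and 4 fell in AEF378, 0 and 2 did in AEF373, and 1 and 0 in AEF149. A link between these markers and gst-1 or gst-7 was not tested.

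**Figure D3:**
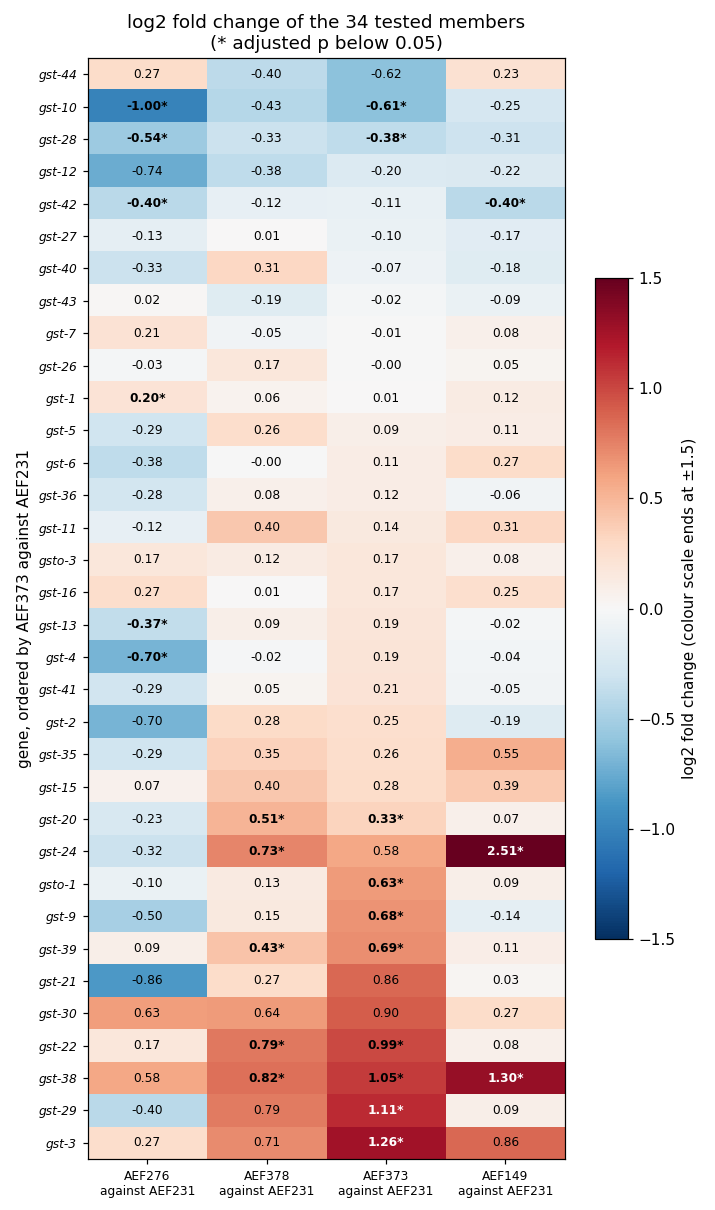
Log2 fold change against AEF231 of the 34 tested members (rows, ordered by AEF373) in the 4 other strains (columns), with the value in each cell and an asterisk where the adjusted p was below 0.05. The colour scale ends at 1.5, below the 2.51 of gst-24 in AEF149; calls are mostly falls in AEF276 and mostly rises in the array strains.

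In AEF378, the strain with the smallest rise of flp-17, 5 members rose and 0 fell. gst-38, gst-22, gst-24, gst-20 and gst-39 made up 14.7% of tested members, where 7.68% of all genes were called higher. The share called lower was 5.92% over all genes. For the count of 0, edgeR had 2 members lower at an unadjusted p below 0.05, and DESeq2 called 1. The median of members was 0.14 with 25 of 34 above 0, beside 0.01 over all genes.

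gst-20 (WBGene00001768, chromosome II, 13608154 to 13609824, minus strand) was the only one of them whose libraries did not overlap with the control. It was read at 10.2, 12, 13, 11.1 and 11.2 CPM in AEF378 and at 5.99 to 9.55 CPM with a median of 8.01 in AEF231. The log2 fold change was 0.51 ± 0.12 (edgeR adjusted p = 0.00201), with 0.67 within batch 1 and 0.25 within batch 2, and over batch 2 alone it was not called (adjusted p = 0.598). gst-22 (WBGene00001770, chromosome V, 16231032 to 16232282, minus strand) was at 13.6, 7.40, 11, 8.94 and 7.28 CPM, beside 4.30 to 8.90 with a median of 4.95 in AEF231. The ranges overlapped, and the change was 0.79 ± 0.19 (edgeR adjusted p = 0.00378). It was 0.75 within batch 1 (edgeR adjusted p = 0.0173) and 0.82 within batch 2, where it was not called (0.118).

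gst-38 (WBGene00001786, chromosome V, 15915162 to 15916070, minus strand) was read at 4.16, 2.47, 2.34, 4.14 and 3.82 CPM in AEF378 and 1.60 to 2.52 with a median of 1.78 in AEF231 (0.82 ± 0.24, edgeR adjusted p = 0.0181). gst-24 (WBGene00001772, chromosome II, 13610443 to 13611366, minus strand) was at 2.27, 1.61, 2.74, 2.15 and 1.82 CPM beside 0.847 to 1.65 with a median of 1.30 (0.73 ± 0.24, edgeR adjusted p = 0.034). gst-39 (WBGene00001787, chromosome II, 15171163 to 15171916, minus strand) was at 9.08, 9.77, 9.14, 10.3 and 9.92 CPM beside 6.45 to 9.29 with a median of 6.79 (0.43 ± 0.15, edgeR adjusted p = 0.0396). Each of these 3 had 1 or 2 AEF378 libraries inside the control range. Each call also rested on single libraries. gst-38 was not called without AEF378 replicate 1, 4 or 5 (adjusted p of 0.055 to 0.0827). gst-24 was not called without AEF378 replicate 1, 3 or 4 or AEF231 replicate 1, 4 or 6 (0.0551 to 0.115). gst-39 was not called without any one AEF378 library or AEF231 replicate 1, 2, 3, 4 or 6 (0.0519 to 0.1). The count of 5 fell to 2 without AEF378 replicate 1 or 4 and to 3 without AEF378 replicate 3 or 5 or AEF231 replicate 1, 4 or 6.

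In AEF373, which has high flp-17 in the same background, 8 members rose and 2 fell. gst-3, gst-29, gst-38, gst-22, gst-39, gst-9, gsto-1 and gst-20 rose, 23.5% of tested members beside 17.9% of all genes. gst-10 and gst-28 fell, 5.88% beside 16.9%. The median of members was 0.18 with 24 of 34 above 0, beside -0.01 over all genes. Comparisons with AEF231 share its 6 libraries, so their values are not independent of each other.

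gsto-1 (WBGene00016204, chromosome III, 7945542 to 7947018, minus strand) encodes an omega enzyme; omega enzymes use a cysteine at the active site and act as reductases more than as conjugating enzymes. It was read at 18.1, 17, 17.7, 16.4 and 16.4 CPM in AEF373 and at 10.2 to 13 CPM with a median of 10.7 in AEF231. The groups did not overlap (log2 fold change 0.63 ± 0.13, edgeR adjusted p = 0.000172). It was 0.67 higher on the log2 scale within batch 1 and 0.62 within batch 2. Its exons share 52 bases with kle-2 on the other strand, and the sources used here do not say whether counting used strand.

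gst-22 was at 12.8, 12.1, 15.1, 7.38 and 8.53 CPM in AEF373 (0.99 ± 0.18, edgeR adjusted p = 6.84e-05), with the lower values in both batch 2 libraries. gst-38 was at 5.07, 4.84, 5.40, 2.19 and 2.69 CPM (1.05 ± 0.24, edgeR adjusted p = 0.000509). gst-39 was at 12.2, 14.7, 11.2, 9.38 and 10.5 CPM, all above AEF231 (0.69 ± 0.14, edgeR adjusted p = 0.00016). The change of gst-38 was 1.45 within batch 1 and 0.25 within batch 2, and that of gst-39 was 0.95 and 0.28. Over batch 2 alone neither was called (adjusted p of 0.757 and 0.477). The difference between batches had an adjusted p of 0.323 for gst-38 and 0.319 for gst-39 in edgeR.

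gst-20 was at 9.38, 9.97, 10.9, 9.48 and 10.7 CPM in AEF373, a change of 0.33 ± 0.12 (edgeR adjusted p = 0.0258) that was 0.48 within batch 1 and 0.09 within batch 2. It was not called without AEF231 replicate 4 or AEF373 replicate 3 (adjusted p of 0.0695 to 0.0824). 3 members rose from low levels. gst-3 (WBGene00001751, chromosome IV, 10139380 to 10140243, minus strand) went from a mean of 0.475 to 1.16 CPM (1.26 ± 0.44, edgeR adjusted p = 0.0246), gst-29 (WBGene00001777, chromosome II) from 0.597 to 1.29 (1.11 ± 0.41, 0.0302) and gst-9 (WBGene00001757, chromosome II) from 1.54 to 2.41 (0.68 ± 0.27, 0.0471). All 3 calls were lost without single libraries. For gst-3 these were AEF231 replicate 3 or 4 and AEF373 replicate 2 (0.0509 to 0.0875), and for gst-29 AEF231 replicate 1, 4 or 5 and AEF373 replicate 3 (0.0593 to 0.173). For gst-9 they were AEF231 replicate 1, 3, 4, 5 or 6 and AEF373 replicate 2, 3 or 5 (0.0667 to 0.179). Without AEF231 replicate 4 the count of 8 was 4.

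gst-10 stood at 5.50, 4.64, 5.69, 7.48 and 7.33 CPM in AEF373 (-0.61 ± 0.15, edgeR adjusted p = 0.00168). The size of the fall went with the batch split of the control. It was -0.34 within batch 1 and -0.98 within batch 2 (adjusted p of the difference 0.406), and in batch 1 alone it was -0.36 and not called (adjusted p = 0.133). In AEF378, where gst-10 was not called over both batches, it was at 7.47, 5.79, 7.21, 6.70 and 7.19 CPM. Its change there was -0.004 within batch 1 and -1.06 within batch 2, where it was called (edgeR adjusted p = 0.00149). The difference between batches had an adjusted p of 0.284 in edgeR. Batch 2 means of gst-10 were 14.6 CPM in AEF231, 7.41 in AEF373 and 6.95 in AEF378, beside batch 1 means of 6.80, 5.28 and 6.82. gst-28 was at 6.88, 8.29, 7.47, 8.28 and 10.1 CPM in AEF373 (-0.38 ± 0.13, edgeR adjusted p = 0.027). It was not called without AEF231 replicate 1 or 2 or AEF373 replicate 1, 2, 3 or 4 (0.0522 to 0.114), and without any of these 6 libraries the count of members that fell was 1.

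**Figure D4:**
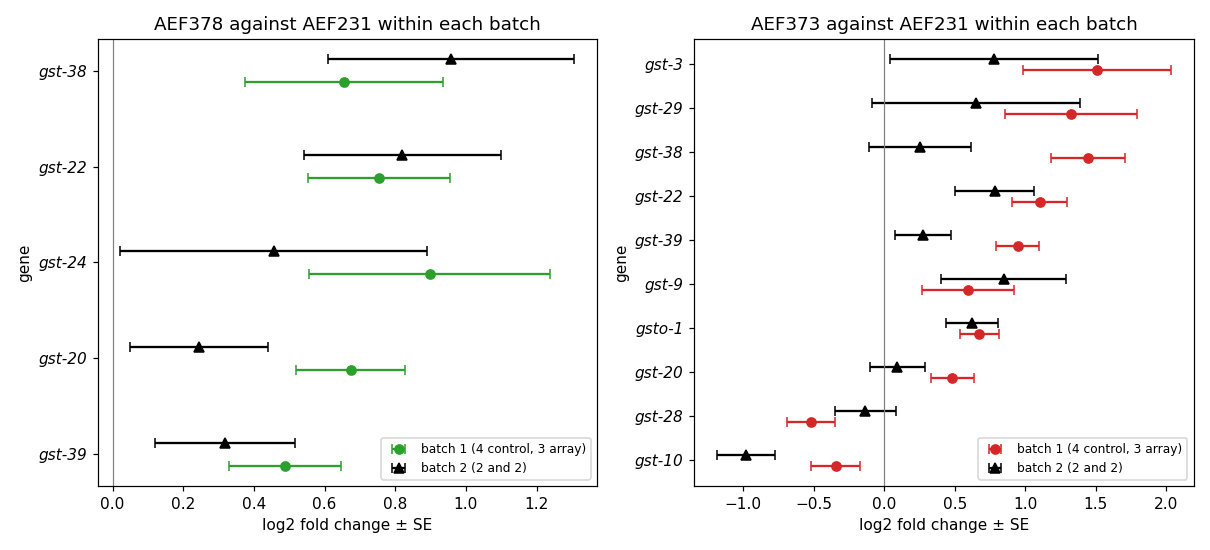
Log2 fold change ± SE within batch 1 (circles, 4 control and 3 array libraries) and within batch 2 (triangles, 2 and 2) for the members called in AEF378 (left) and AEF373 (right) against AEF231. All have the same sign in both batches; gst-38 and gst-39 in AEF373 are larger in batch 1 (1.45 and 0.95) than in batch 2 (0.25 and 0.28), and gst-10 is larger in batch 2.

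In AEF149, with the highest flp-17, 2 members rose and 1 fell. gst-24 and gst-38 rose, 5.88% of tested members beside 6.51% of all genes, and gst-42 fell, 2.94% beside 11%. The median of members was 0.08 with 21 of 34 above 0, beside -0.01 over all genes.

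gst-24 had the largest change of any member in any comparison with AEF231. It was read at 6.87, 7.21, 6.98, 7.71 and 6.89 CPM in AEF149, against 0.847, 1.33, 1.36, 1.14, 1.65 and 1.26 CPM in AEF231 replicates 1 to 6. All AEF149 libraries lay above all 21 other libraries of the study. The log2 fold change was 2.51 ± 0.22, or 5.71-fold (edgeR adjusted p = 1.01e-11). The level in AEF276 was 1.18, 1.37, 1.05, 0.878 and 0.381 CPM, and in AEF373 it was 2.06, 1.38, 2.00, 2.19 and 1.87 CPM. AEF276 overlapped with AEF231, and 4 of 5 libraries of AEF373 lay above it without passing the threshold (log2 fold change 0.58).

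gst-38 was at 4.44, 4.98, 5.87, 4.62 and 5.23 CPM in AEF149, above every AEF231 library (1.30 ± 0.24, 2.47-fold, edgeR adjusted p = 7.82e-05). It was the only member called higher in all 3 array strains, in comparisons that share the control. In AEF276 it stood at 4.64, 3.45, 2.00, 2.73 and 2.29 CPM, with a log2 fold change of 0.58 that was not called. gst-42 was at 8.66, 11.1, 9.99, 14.5 and 12.1 CPM in AEF149, with 3 of 5 libraries below the control range (-0.40 ± 0.11, edgeR adjusted p = 0.00893). In batch 1 alone the change was -0.32 and not called (adjusted p = 0.0742).

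The array strains were also set against each other, all of them sorted. Between AEF378 and AEF373, which share a background and differ in construct and in flp-17 level, 1 member was called. gsto-1 was lower in AEF378, at 11.3, 6.83, 11.4, 15.7 and 15.6 CPM, below every AEF373 library (-0.50 ± 0.14, edgeR adjusted p = 0.0116). This was 2.94% of tested members beside 5.92% of all genes, and 0 were called higher beside 3.68%. edgeR had 0 members higher at an unadjusted p below 0.05 and DESeq2 called 0. Replicates 4 and 5 of AEF378, at 15.7 and 15.6 CPM, were its batch 2 libraries; without replicate 2 gsto-1 was not called (adjusted p = 0.0704) and the count was 0, and over batch 2 alone the change was -0.06 (adjusted p = 0.938).

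AEF149 and AEF373 both carry flp-17 under its own promoter, yet differ in tag, marker and background. Here 2 members were higher in AEF149, 5.88% beside 13.2% of all genes, and 4 lower, 11.8% beside 19%. gst-24 was higher, at a mean of 7.13 against 1.90 CPM, without overlap (1.94 ± 0.23, edgeR adjusted p = 5.87e-09). gsto-1 was lower, at 11.1, 13.6, 9.52, 12.3 and 9.95 CPM against at least 16.4 (-0.54 ± 0.14, adjusted p = 0.00282). gst-22 and gst-39 were lower too (-0.91 ± 0.19 and -0.59 ± 0.15, edgeR adjusted p = 0.00047 and 0.0027). In AEF149 gst-22 was read at 4.44, 7.43, 7.53, 6.71 and 7.85 CPM and gst-39 at 5.01, 6.98, 10.2, 8.07 and 8.20 CPM. gst-44 was higher (0.85 ± 0.34, 0.0482) and gst-9 lower (-0.82 ± 0.29, 0.0294). The first was not called without AEF373 replicate 1, 2 or 3 or AEF149 replicate 1, 3 or 5 (0.0728 to 0.182), and the second without AEF373 replicate 2, 3 or 5 or AEF149 replicate 5 (0.0512 to 0.105). Without AEF373 replicate 1, 2 or 3 or AEF149 replicate 1 or 5 the count of members higher was 1. In AEF373 gst-44 was read at 0.813 to 0.946 CPM in batch 1 and at 2.19 and 2.99 in batch 2. The AEF149 libraries, all of batch 1, were at 1.41 to 3.15 CPM, and the batch 1 libraries of AEF231 at 1.06 to 3.45.

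Many members lie next to each other in the genome. Of the 47, 25 lie on chromosome II, 9 on V, 4 each on III and IV, 3 on X and 2 on I. Taking neighbours whose starts are under 20 kb apart, 4 tandem groups hold 3 or more members, as described next in WBcel235 coordinates. One on chromosome II (4879891 to 4893573) holds gst-6, gst-7, gst-8 and gst-9. The next (13608154 to 13630887) holds 9, in the order gst-20, gst-24, gst-15, gst-14, gst-12, gst-16, gst-19, gst-17 and gst-18. The third (15163817 to 15185389) holds 9, gst-26, gst-27, gst-28, gst-29, gst-39, gst-31, gst-32, gst-34 and gst-35. On chromosome IV (10139380 to 10143099) gst-3, gst-2 and gst-4 stand together.

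Within a tandem group, called and uncalled members stood side by side. In the group of gst-20, 5 of 9 members were tested, and in AEF149 gst-24 was called at 2.51 while the other 4 lay between -0.22 and 0.39. gst-20 and gst-24 both rose in AEF378. In the third group 6 of 9 were tested. In AEF373, gst-29 and gst-39 rose, gst-28 fell, and gst-26 and gst-27 stood at -0.00 and -0.10 without a call. On chromosome IV, gst-4 fell in AEF276 while its neighbour gst-3 had a log2 fold change of 0.27 that was not called. How reads matching more than 1 of these related genes were counted is not given in the sources used here. gst-17 and gst-18, neither tested, share 351 exon bases.

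**Figure D5:**
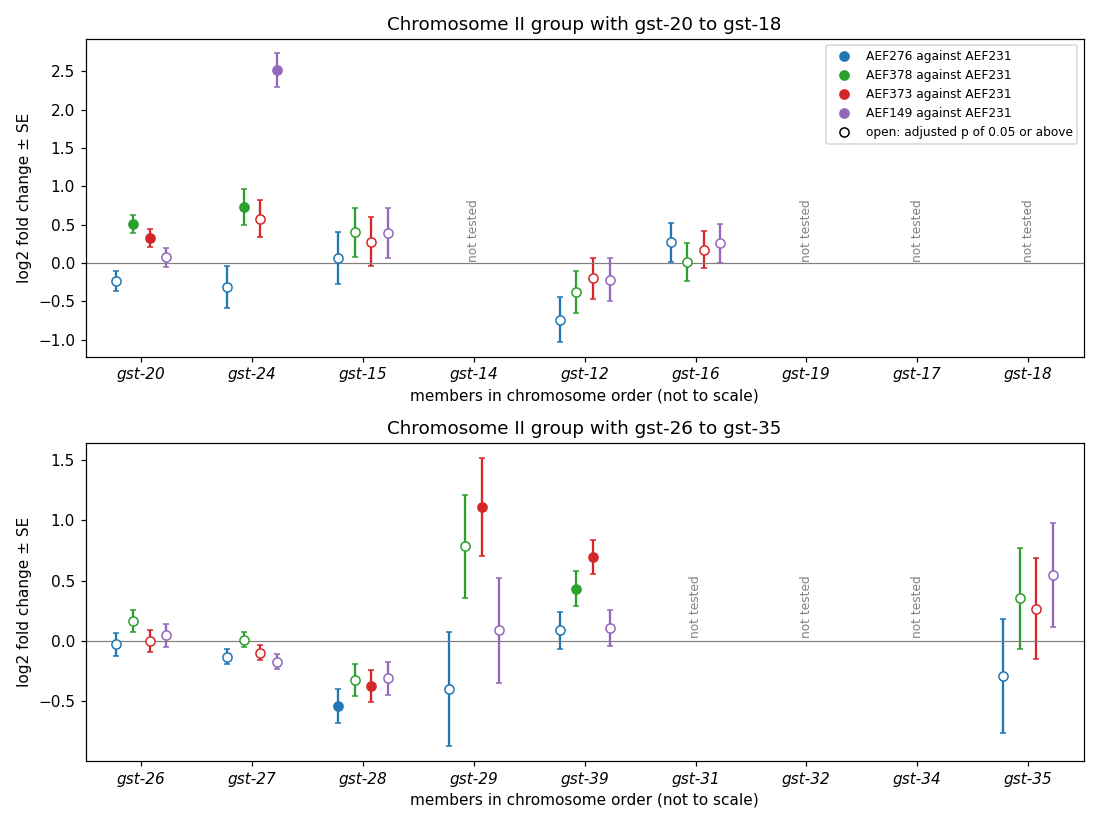
Log2 fold change ± SE against AEF231 in the 4 other strains for the members of the chromosome II groups of 9 that begin with gst-20 (top) and gst-26 (bottom), in chromosome order and not to scale; filled points have an adjusted p below 0.05. gst-24 at 2.51 in AEF149 stands alone in its group, and gst-28 lies below 0 while gst-29 and gst-39 lie above it in AEF373.

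Several of the most abundant members were called in no comparison. In all, 18 tested members were called in none of the 6, and 15 of these were not called in the joint test either. The share of all genes called in none of the 6 was not counted, so no background stands beside the 18. The 5 of the 15 with a mean of at least 5 CPM were gst-7, gst-27, gst-26, gst-43 and the omega gene gsto-3, whose log2 fold changes against AEF231 lay between -0.19 and 0.21. The lowest adjusted p of these was 0.0541, for gst-27 in AEF149. The other 10 are of lower level and reached from -0.74 (gst-12 in AEF276) to 0.90 (gst-30 in AEF373) without a call. gst-5, gst-36 and gst-21 were called in the joint test alone. gst-5 (WBGene00001753, chromosome II, 10950352 to 10951603, plus strand) was at 6.58, 8.77, 5.35, 6.83 and 8.57 CPM in AEF276 and 9.93, 12.5, 11.5, 11.1 and 9.46 CPM in AEF378. Those strains did not overlap, with AEF231 between them at 7.78 to 10.7 CPM, and they were not compared directly.

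The other genes of glutathione metabolism were counted in the same fit. Of 21 genes of glutathione synthesis, reduction and transport, all tested, 4 rose and 1 fell in AEF276, 1 and 2 did in AEF378, 2 and 3 in AEF373, and 1 and 1 in AEF149. Some of these calls were lost without single libraries, and 2 of the 4 rises in AEF276, 0 of 1 rise and 1 of 2 falls in AEF378, and 2 of 3 falls in AEF373 were kept in every removal. gss-1 (0.072 to 0.262) and gsr-1 (0.0533 to 0.156) were both lost in AEF276 without AEF231 replicate 1, 2, 3, 4 or 6 or AEF276 replicate 2, 3 or 5, and gss-1 also without AEF231 replicate 5. cth-1, the rise in AEF378, was lost without any one library of the 11 but AEF231 replicate 2 and AEF378 replicate 5 (0.0523 to 0.107), and with no batch term (0.41). glrx-3 was lost in AEF378 without replicate 3 (0.0712), and mrp-4 in AEF373 without AEF231 replicate 3 or 4 or AEF373 replicate 1, 2, 3 or 5 (0.0561 to 0.118). gcs-1, the rate-limiting ligase of glutathione synthesis, was called in none, at means of 136 ± 7.08 CPM in AEF231 (SD, n = 6) and 141 ± 8.74, 134 ± 5.42, 127 ± 2.38 and 134 ± 4.94 in AEF276, AEF378, AEF373 and AEF149 (SD, n = 5). The transporter gene mrp-7 rose in AEF276 (0.30 ± 0.06, edgeR adjusted p = 0.000507), and the related mrp-3 fell in AEF149 (-0.60 ± 0.09, 5.69e-06). Of 8 glutathione peroxidase genes, 3 fell in AEF276 and 3 in AEF149, and 0 were called in AEF378 and AEF373. gpx-8 fell in AEF276 by 1.84 ± 0.31 on the log2 scale (edgeR adjusted p = 3.2e-05) and gpx-5 fell in AEF149 by 0.49 ± 0.08 (2.33e-05). In AEF149 gpx-8 was lost in 9 of 11 removals, all but those of AEF231 replicate 3 and AEF149 replicate 3 (0.0501 to 0.106), and gpx-1 without AEF231 replicate 2 or 5 (0.0544 to 0.0822). In AEF276 gpx-5 was lost without AEF231 replicate 2 or 5 or AEF276 replicate 2, 4 or 5 (0.0569 to 0.131). The kappa class genes gstk-1 and gstk-2 were called in none.

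Regulators known for control of these genes in worms were counted likewise. Of 13 regulators and reporter targets of SKN-1 that are not transferases, 2 rose and 1 fell in AEF276, 0 and 1 did in AEF378, 1 and 1 in AEF373, and 0 and 2 in AEF149. skn-1 rose in AEF276 (0.19 ± 0.05, edgeR adjusted p = 0.00937), the strain in which gst-4 fell. Without AEF231 replicate 1, 2 or 3 or AEF276 replicate 2 that call was lost (0.0522 to 0.0848). The other rise was gsr-1. The falls of pgam-5 in AEF378 (0.0502 to 0.129, without AEF231 replicate 3, 5 or 6 or AEF378 replicate 3, 4 or 5) and in AEF149 (0.0587 to 0.107, without AEF231 replicate 2, 5 or 6 or AEF149 replicate 2 or 3) were lost likewise, as was nit-1 in AEF149 in every removal but that of AEF231 replicate 3 (0.0511 to 0.147). The SKN-1 reporter target dhs-8 rose in AEF373 (1.58 ± 0.34, 0.000272). Of 10 genes of the HIF-1 pathway, which responds to low oxygen and hydrogen sulfide, 0 rose and 1 fell in AEF276, 1 and 1 did in AEF378, 2 and 1 in AEF373, and 0 and 2 in AEF149. nhr-57, a HIF-1 target, rose in AEF373 (0.85 ± 0.22), and both rises there were kept in every removal. Both AEF378 calls were lost in several, cysl-1 without AEF231 replicate 1, 3, 5 or 6 or AEF378 replicate 1, 3, 4 or 5 (0.0543 to 0.096) and egl-9 without AEF231 replicate 3, 4 or 5 or AEF378 replicate 1, 3 or 4 (0.055 to 0.0912). sqrd-1, the fall in AEF373, was lost without AEF231 replicate 3, 4 or 6 or AEF373 replicate 1, 2 or 4 (0.0681 to 0.12). rhy-1 was lost in AEF276 without its replicate 2 (0.0587) and phy-2 in AEF149 without AEF231 replicate 1 (0.0543). Of 8 tested regulators of xenobiotic response, 0 were called in AEF276, 1 rose in AEF378, 3 rose in AEF373, and 1 fell in AEF149. The fall, of mdt-15, was lost without AEF231 replicate 4, 5 or 6 or AEF149 replicate 3, 4 or 5 (0.0694 to 0.0963). The foregut factor gene pha-4 rose in AEF378 (0.76 ± 0.17, edgeR adjusted p = 0.00128) and AEF373 (1.36 ± 0.16, 7.78e-09). The shares of all genes called in each direction, given above, are the background of these counts.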

How the data were processed

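Read counts per gene, one column for each of 26 libraries, were deposited by the authors as whole numbers. STAR 2.7.11b and build ce11 stand in the submitters' processing notes. How reads were counted, with which annotation and strand setting, is not given in the sources used here. RNA was extracted with Trizol and a column and libraries were made after poly(A) selection, per the labels' protocols.

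Counts were used as deposited. Genes were filtered with edgeR's filterByExpr by strain, scaled by TMM, and fitted with edgeR 4.0.16 (R 4.3.3) by robust quasi-likelihood to strain and batch over every library. p-values were adjusted by Benjamini-Hochberg over 13315 genes, with a threshold of 0.05. SE is that of the log2 fold change. Depth was 9659877 to 15528669 counts per library, and the common biological coefficient of variation was 8.01%. CPM values are on the TMM scale, and per-kilobase levels use the exon union of Ensembl's WBcel235 annotation (the assembly of ce11), to which all 47 symbols matched. Levels were given in each library for the 12 members with the smallest joint p, and each called member was named. The fit was tested on simulated data. Members and lists were chosen with earlier results of these data known. 55 replicate pairs differed by more than sampling noise (chi-square per gene 3.2 to 13.9). Alternatives were DESeq2 1.42.0, RLE factors, no or a stricter filter, a fit without batch, each batch alone, a replicate block and each library left out.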

Additional observations from a re-analysis of the deposited data

Results flagged for a closer look

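In 3 of 65 sets of values (a member, or the sum of the family, in a strain), 1 library stood apart from the others of its strain. Dixon's criterion was used, where chance gives about 1 in 20. gst-10 was at 4.98 CPM in AEF149 replicate 2, with the other libraries of that strain at 6.73 to 7.42. gsto-1 was at 13 CPM in AEF231 replicate 3, with the others at 10.2 to 10.9. gst-39 was at 9.29 CPM in AEF231 replicate 5, with the others at 6.45 to 7.08. No member's change in AEF378 or AEF373 was called different between batch 1 and batch 2 in edgeR, over 68 tests of that difference with a smallest adjusted p of 0.284; 8 had an unadjusted p below 0.05.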

How the results depend on the processing

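Of 564 alternative values of the 31 called member fold changes, 477 kept their call, 87 lost it and 0 changed sign. The cause of the losses was not tested; alternatives with 1 batch or 1 library fewer have fewer samples. With no batch term, 2 members were higher and 8 lower in AEF276, 2 were lower in AEF149, and 1 was higher in AEF149 than in AEF373. With no filter on low counts 2 were higher in AEF276. DESeq2 called 1 lower in AEF378. Over batch 1 alone 1 member was higher in AEF378 and 0 lower in AEF149. Over batch 2 alone 0 were higher and 1 lower in AEF378, 2 higher and 1 lower in AEF373, and 0 lower in AEF378 than in AEF373. The mean summed level of AEF276 was 554 CPM by library total in place of TMM.

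Leaving out each library in turn gave these ranges of members called. Against AEF231 they were 1 to 1 higher and 5 to 6 lower in AEF276, 2 to 5 and 0 to 2 in AEF378, 4 to 9 and 1 to 3 in AEF373, and 2 to 3 and 1 to 2 in AEF149. Against AEF373 they were 0 to 0 higher and 0 to 1 lower in AEF378, and 1 to 3 and 3 to 6 in AEF149. The joint test gave 15 to 19.

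With the replicate number as a block, 2 members were higher in AEF378 than in AEF231 and 1 in AEF149 than in AEF373, and the other counts stayed within 1.5 times. The numbers do not pair the libraries: over 50 pairs of the same number the deviations correlated at -0.23 to 0.123, and 1 of 26 libraries correlated best with its own number.

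The 13 members that were not tested held 1 to 132 counts each over 26 libraries and did not pass the filter on low counts. Why their counts were low was not tested.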
